A study of Mus musculus with 12 samples.

Results

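Hepatocyte growth factor (HGF) with its receptor MET, and fibroblast growth factors (FGFs) with their receptors, were followed as a set of 10 genes in C2C12 myotubes: the ligands Hgf, Fgf1, Fgf2, Fgf6 and Fgf7 and the receptors Met, Fgfr1, Fgfr2, Fgfr4 and Fgfrl1. The 10 were taken by symbol from the 55487 genes of the deposited count table, each through its Ensembl ID in the mouse annotation of genome build GRCm38. The selection rule names symbols and uses no measured value, but the symbols were picked with earlier results of these data known. C2C12 is an immortalized mouse myoblast line that fuses into multinucleated myotubes when serum is lowered. STEM is the cell-free mixture of factors secreted by partially differentiated human embryonic stem cells. All cultures were differentiated for 5 days in DMEM with 2% horse serum and penicillin/streptomycin, then received DMEM and penicillin/streptomycin with either 4% horse serum (control, libraries 1 to 6) or 4% STEM (libraries 7 to 12) for 24 h. STEM took the place of horse serum, so what STEM adds and what serum withdrawal takes away cannot be told apart. Nothing in the labels says which libraries came from which cultures, so p-values measure the spread between libraries, which may be partly technical.

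HGF binds a single receptor, the tyrosine kinase MET. In muscle it is known as the factor that brings quiescent satellite cells into the cell cycle and restrains differentiation of myoblasts. FGFs bind tyrosine kinase receptors together with heparan sulfate, and in cultured myoblasts FGF2 keeps cells dividing and delays fusion. Both receptor families signal through adaptor proteins to the RAS-ERK cascade, which in turn raises its own inhibitors of the Sprouty and dual-specificity phosphatase families. FGFRL1 binds FGFs but lacks the tyrosine kinase domain of the other receptors.

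The promoters of Hgf and Fgfrl1 are shown because these are the members that changed most in each direction. RefSeq (GRCm38.p6) gave promoter windows for 8 of the 10 members, and Fgf1 and Fgfr1 had no entry. Each sequence holds the 250 bases before an annotated start, on the plus strand and outside annotated exons, at chr5:16553245-16553494 for the first of 2 annotated Hgf starts and at chr5:108693979-108694228 for Fgfrl1. The annotated Fgfrl1 gene begins at 108692382, so its window lies within the gene, before an internal start. Capitals mark E-boxes (CANNTG, a general motif bound by MyoD and myogenin among other factors) and GC boxes (GGGCGG or its complement, the motif of Sp1). Which factors bind the marked stretches was not measured.
Hgf: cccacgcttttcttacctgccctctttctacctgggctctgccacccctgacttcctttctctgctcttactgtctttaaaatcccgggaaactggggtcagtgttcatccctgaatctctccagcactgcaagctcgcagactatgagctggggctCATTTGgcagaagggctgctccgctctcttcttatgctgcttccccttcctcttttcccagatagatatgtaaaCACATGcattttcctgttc
Fgfrl1: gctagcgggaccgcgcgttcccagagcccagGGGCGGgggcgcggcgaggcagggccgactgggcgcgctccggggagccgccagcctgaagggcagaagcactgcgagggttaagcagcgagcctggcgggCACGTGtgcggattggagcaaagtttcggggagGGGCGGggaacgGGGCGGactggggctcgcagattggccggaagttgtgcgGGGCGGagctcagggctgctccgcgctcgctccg
The Hgf window held 2 E-boxes, no GC box and 50.8% G and C. In contrast, the Fgfrl1 window held 1 E-box, 4 GC boxes and 73.6% G and C, a content higher than that of 94.7% of the 32851 promoters of this length. An E-box occurred in 66.2% and a GC box in 32.7% of all these promoters. Neither window held the AP-1 motif TGANTCA (6.75% of promoters), the cAMP response motif TGACGTCA (1.55%), the MCAT motif CATTCC (12.6%), TATAAA (12.4%) or CAGCTG, a form of the E-box (13%). Both strands were searched for each motif.

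Depth ranged from 13285472 to 24536264 counts per library. Levels are given in CPM, which express a gene's counts relative to the total counts of its library, here with the totals scaled by TMM. Horse serum library 6 stood apart from the other 11 libraries on the second principal component of log2 CPM (-53.3 against 0.22 to 11.8). On the first component, which held 44.2% of the variance, it lay at 11.2, nearer to the STEM libraries (15.5 to 28.6) than to the other horse serum libraries (-35.5 to -24.6). Its 10 myotube markers summed to 11455 CPM, against 16005 to 18324 CPM in the other horse serum libraries, while its 8 proliferation markers had the highest sum of all libraries (1188 CPM). With STEM the same sums ran from 14507 to 20133 CPM for the myotube markers and from 520 to 645 CPM for the proliferation markers. The muscle markers Myog (907 ± 38.3 CPM with horse serum, SD, n = 6) and Ckm (428 ± 130 CPM) were abundant, as labelled. Macrophage, endothelial and epithelial markers each summed to at most 6.11 CPM in every library, and fibroblast markers to between 42.5 and 57.8 CPM. Of these markers, Ptprc, Adgre1, Pecam1, Kdr and Epcam had no more than 2 counts in any library. Others had more. The macrophage marker Cd68 had 39 to 68 counts with horse serum and 54 to 87 with STEM, and Csf1r had 1 to 9 and 6 to 30. The epithelial marker Cdh1 had 54 to 92 and 40 to 76 counts and was lower with STEM (adjusted p = 0.0162 in edgeR). Library 6 was kept, and calls of members and pathway lists that change without it are given both ways.

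Of the 10 members, 8 passed the filter on low counts. In edgeR, 5 of these were called (adjusted p no higher than 0.05): Hgf, Met, Fgfr1 and Fgfr4 fell with STEM and Fgfrl1 rose. Among all 14175 genes tested, 36.4% were called, 17.4% lower and 18.9% higher. The median log2 fold change was -0.08 over the 8 members and 0.01 over all genes tested. For 4 of the 8, no STEM library lay within the horse serum range or the reverse, against 17.2% of all genes tested. In bulk RNA, a change in the number of cells of a type and a change in RNA per cell cannot be told apart.

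**Figure D1:**
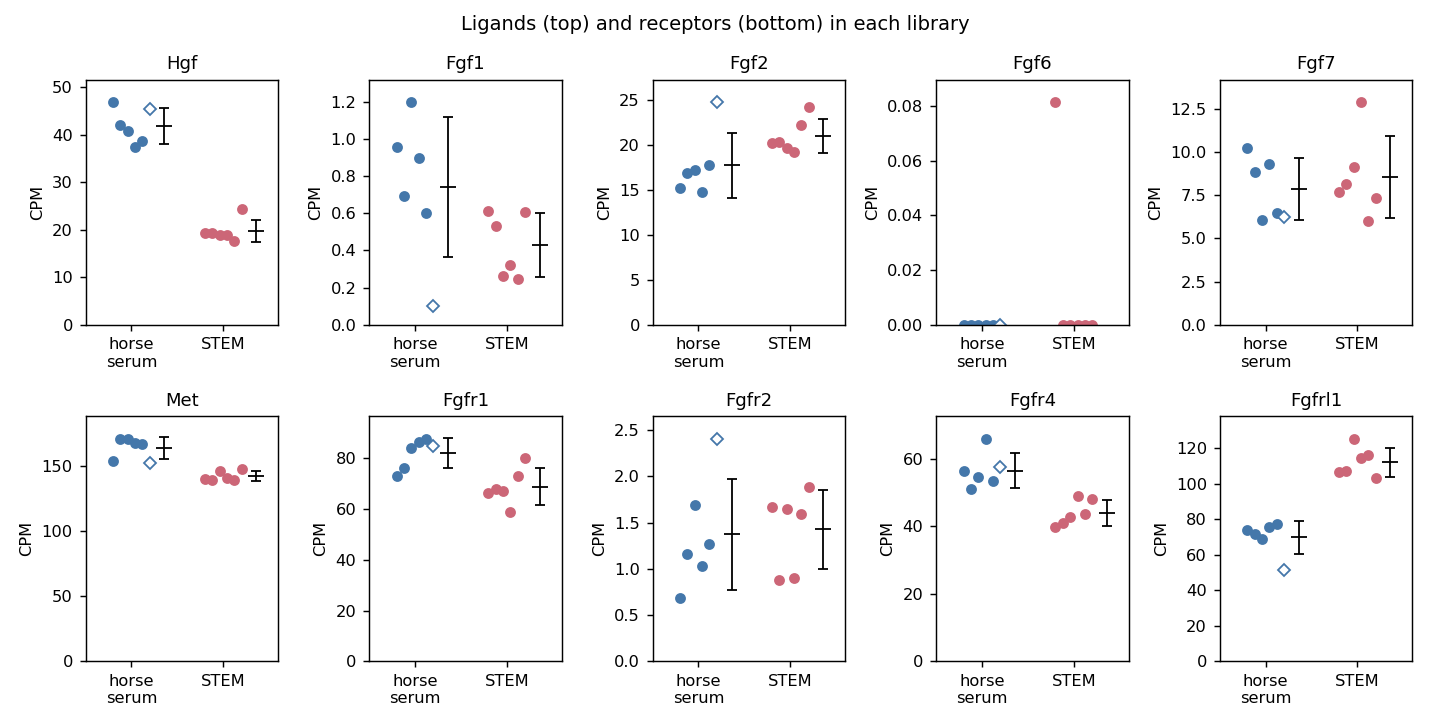
CPM of the 5 ligand genes (top) and 5 receptor genes (bottom) in each library, with horse serum in blue and STEM in red. Each point is a library, the open diamond is horse serum library 6, and bars give the mean and SD of 6 libraries, left out for Fgf6, which had counts in 1 library only. Hgf in STEM reached 24.4 CPM at most, below the 37.4 CPM of the lowest horse serum library, and Fgfrl1 moved the other way.

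Hgf (ENSMUSG00000028864, protein coding, GRCm38 chromosome 5, 16553495 to 16620152), the only ligand called with all libraries kept, was lower with STEM. It ran from 37.4 to 46.9 CPM with horse serum (median 41.4) and from 17.6 to 24.4 CPM with STEM (median 19.1). Every STEM library lay below every horse serum library, and library 6 (45.4 CPM) was among the high horse serum values. The level was 2.12-fold lower with STEM (log2 fold change -1.08, standard error 0.081, adjusted p = 2.33e-07), and 46 of the 14175 genes had a smaller p-value. The exact permutation test on log2 CPM gave p = 0.00216 (two-sided), the smallest that 6 libraries against 6 allow. Hgf shares 484 of its 7186 exonic bases with Gm43489, a gene annotated on the same strand. The 3 genes whose log2 CPM followed that of Hgf most closely over the 12 libraries were Gas2, Fmo1 and Sema3a, at root-mean-square distances of 0.11, 0.12 and 0.13 on the log2 scale after centring each gene. Their log2 fold changes ran from -1.03 to -0.88, and closeness to that of Hgf follows from how they were picked.

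Met (ENSMUSG00000009376, chromosome 6, 17463800 to 17573980), the HGF receptor, was also lower with STEM, by much less. Its CPM lay between 152 and 171 with horse serum (median 167) and between 139 and 148 with STEM (median 140.4). The groups did not overlap, although the lowest horse serum value and the highest STEM value were close. The log2 fold change of -0.20 ± 0.042 (SE), a level lower by 13.1%, had an adjusted p of 0.00175, and the exact permutation test (two-sided) gave p = 0.00216. Closest to the profile of Met were Tlr4, Erbin and Nbr1, at distances of 0.037, 0.039 and 0.039 on the log2 scale. Per kb of merged exon, the ligand stood at 0.275 ± 0.0376 of its receptor with horse serum and at 0.148 ± 0.0145 with STEM (SD, n = 6 each). By the length of the longest coding transcript, an alternative chosen after seeing the data, these ratios were 0.505 ± 0.0691 and 0.272 ± 0.0267, so their size rests on the length used.

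Of the FGF ligands, Fgf2 and Fgf7 were expressed and neither was called, while Fgf1 and Fgf6 were too low to be tested. Fgf2 (ENSMUSG00000037225, chromosome 3, 37348346 to 37410108), the basic FGF of muscle cultures, lay between 14.8 and 24.8 CPM with horse serum (median 17.0) and between 19.2 and 24.2 CPM with STEM (median 20.2). The highest of the 12 values was that of horse serum library 6, and the other horse serum libraries, at 17.7 CPM or less, lay below every STEM library. Over all libraries the fold was 1.18 (95% interval 0.998 to 1.39; log2 fold change 0.23 ± 0.11, SE), with an adjusted p of 0.114. Without library 6 the log2 fold change was 0.36 ± 0.074 (SE), and the gene was called as higher with STEM (adjusted p = 0.000469; exact permutation test, two-sided, p = 0.00216), in a fit that called 50.8% of all genes tested. Fgf2 shares 640 exonic bases with Nudt6 on the opposite strand and 255 with Gm43439 on the same strand. Whether the counting used strand is not given in the sources used here, so reads from the part shared with Nudt6 cannot be assigned to either gene.

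Fgf7 (ENSMUSG00000027208, chromosome 2, 126034658 to 126091185) encodes keratinocyte growth factor, a ligand made by mesenchymal cells. It varied widely in both groups, from 6.07 to 10.2 CPM with horse serum (median 7.67) and from 6.00 to 12.9 CPM with STEM (median 7.92). The groups overlapped throughout, and the fold between them was 1.09 with a 95% interval from 0.829 to 1.42 (adjusted p = 0.638).
Fgf1 (ENSMUSG00000036585), the acidic FGF, had 2 to 17 counts per library with horse serum and 4 to 15 with STEM. Its CPM lay between 0.102 and 1.2 with horse serum (median 0.797) and between 0.245 and 0.612 with STEM (median 0.426). Horse serum library 6 gave the lowest value, and the other 5 horse serum libraries averaged 0.872 CPM. It was not called without the filter on low counts (log2 fold change -0.71, adjusted p = 0.231 in edgeR) or in DESeq2 (adjusted p = 0.217). On log2 CPM the difference was -0.53 (exact permutation test, two-sided, p = 0.238), and without library 6 it was -0.88 (p = 0.013).
Fgf6 (ENSMUSG00000000183, chromosome 6, 127015586 to 127028187), known as a ligand largely restricted to skeletal muscle, had 0 counts in 11 libraries and 2 counts in STEM library 7. A count of 0 allows up to 3 counts, which correspond to between 0.154 and 0.232 CPM in the 11 libraries, and this covers counting error only.

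Fgfr4 (ENSMUSG00000005320, chromosome 13, 55152640 to 55168759), a receptor characteristic of differentiating myoblasts and regenerating muscle, was lower with STEM. It lay between 51.1 and 66.0 CPM with horse serum (median 55.5) and between 39.7 and 49.1 CPM with STEM (median 43.3), without overlap. The level was lower by 22.1%, a log2 fold change of -0.36 ± 0.069 (SE) with an adjusted p of 0.000947 (exact permutation test, two-sided, p = 0.00216).
Fgfr1 (ENSMUSG00000031565, chromosome 8, 25513654 to 25575718), the receptor through which FGF2 acts on myoblasts, was lower by 16.1%. It ranged from 72.8 to 87.5 CPM with horse serum (median 84.2) and from 58.6 to 79.9 CPM with STEM (median 67.4). The groups overlapped, with 4 of the 6 STEM values lying under the whole horse serum range and STEM library 12 the highest of its group. In edgeR the log2 fold change of -0.25 ± 0.069 (SE) had an adjusted p of 0.00994, and the exact permutation test (two-sided) gave p = 0.0108. Fgfr1 shares 164 exonic bases with Gm16159 on the opposite strand.
Fgfr2 (ENSMUSG00000030849, chromosome 7, 130162451 to 133123350), best known from epithelia and bone, was near the lower limit of the test with 10 to 47 counts per library. Its CPM was between 0.685 and 2.41 with horse serum (median 1.21) and between 0.884 and 1.89 with STEM (median 1.62). The fold of 1.02 had a 95% interval from 0.675 to 1.56 (adjusted p = 0.936), so changes within that interval could not be told from no change at this depth. Fgfr2 shares 314 exonic bases with Ctbp2 on the same strand.

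Fgfrl1 (ENSMUSG00000008090, chromosome 5, 108692382 to 108706924), the receptor without a kinase domain, was the only member called as higher with all libraries kept. It lay between 51.4 and 77.3 CPM with horse serum (median 72.8) and between 103 and 125 CPM with STEM (median 111). Horse serum library 6 held the lowest value, and the remaining horse serum libraries fell between 68.8 and 77.3 CPM. The groups did not overlap with or without that library. The fold was 1.61 (95% interval 1.42 to 1.82, log2 fold change 0.68, standard error 0.085, adjusted p = 3.01e-05; exact permutation test, two-sided, p = 0.00216), and without library 6 it was 1.52 (adjusted p = 1.1e-08).

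**Figure D2:**
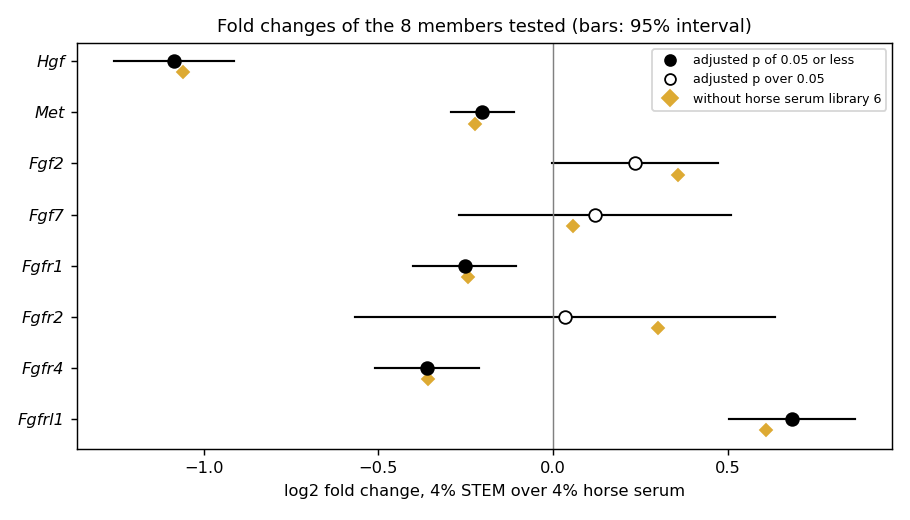
Log2 fold change of the 8 members tested, 4% STEM over 4% horse serum, with the 95% interval of the edgeR fit. Filled circles have an adjusted p-value of 0.05 or less, and diamonds give the value without horse serum library 6, which lies at 0.36 for Fgf2 and at 0.61 for Fgfrl1.

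Among the STEM libraries, library 12 stood at the end of the range in several members, although its distance from the next library was large only for Hgf. It had the highest Hgf (24.4 CPM, next 19.3 CPM), Met, Fgf2, Fgfr1 and Fgfr2 and the lowest Fgfrl1. It also had the highest sum of myotube markers (20133 CPM) and the lowest sum of proliferation markers (520 CPM) of the STEM libraries. Ttn alone was the largest term of the myotube sum (8186 ± 1849 CPM over the STEM libraries, SD, highest 11610 CPM). The part of the markers in the values of library 12 was not tested.

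Levels of different genes were compared only per length, as CPM per kb of merged exon. With horse serum the order was Fgfrl1 (25.1 ± 3.4), Met (21.3 ± 1.09), Fgfr4 (16.0 ± 1.45), Fgfr1 (8.29 ± 0.602), Hgf (5.82 ± 0.520), Fgf2 (2.61 ± 0.535), Fgf7 (2.42 ± 0.558), Fgf1 (0.136 ± 0.0691), Fgfr2 (0.133 ± 0.0585) and Fgf6 (SD, n = 6 each). The neighbours Fgfrl1 and Met, Fgf2 and Fgf7, and Fgf1 and Fgfr2 overlapped in their ranges. With STEM, Fgfrl1 (40.3 ± 2.91) separated from Met (18.5 ± 0.502), and Hgf (2.75 ± 0.327) moved to between Fgf2 (3.09 ± 0.279) and Fgf7 (2.63 ± 0.731), overlapping both.
Among the 4 kinase receptors, Fgfr4 made up 60.3% ± 2.24 of the length-scaled level with horse serum and 56.4% ± 3.25 with STEM, and Fgfr1 made up 31.4% ± 1.96 and 31.5% ± 2.33 (SD, n = 6). Fgfr3, which is no member, was next with 7.82% ± 1.78 and 11.4% ± 1.14. The change from 14.7 ± 2.99 to 18.0 ± 1.45 CPM did not pass the test (adjusted p = 0.0741), and it was called as higher once library 6 was left out. The order of Fgfr4 and Fgfr1 rests on the length used. With the length of the longest coding transcript, an alternative chosen after seeing the data, the shares with horse serum were 45.9% and 43.9%, with overlapping levels, and with STEM Fgfr1 (43.3%) came before Fgfr4 (42.2%). By that length Hgf (5.70 ± 0.678 per kb) also stayed above Fgf2 (3.51 ± 0.317) with STEM, without overlap.

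**Figure D3:**
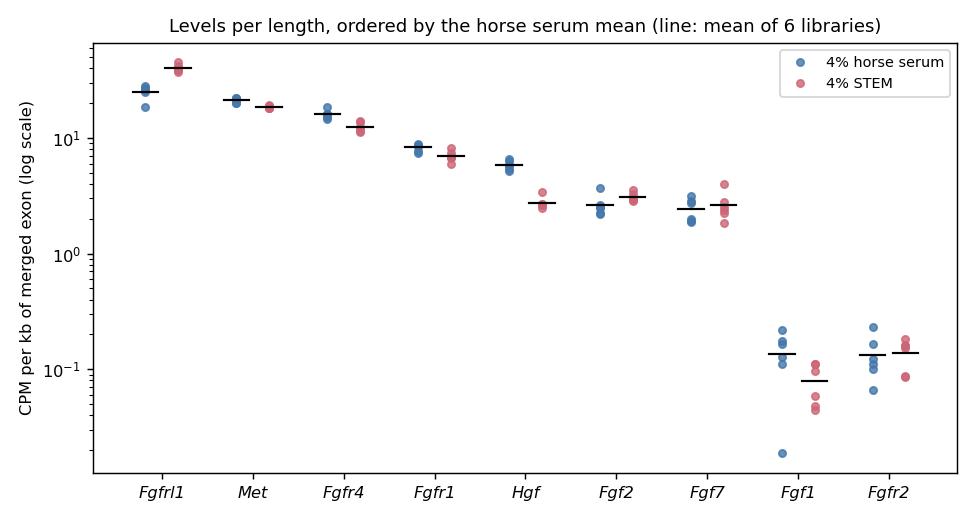
CPM per kb of merged exon (log scale) of 9 members in each library, in the order of the horse serum mean; lines are means of 6 libraries. Fgf6 is left out since 11 of its 12 values are 0. The member ligands lie below the receptors Fgfrl1, Met, Fgfr4 and Fgfr1 in both groups, and Hgf joins Fgf2 and Fgf7 with STEM. Ligands outside the set, such as Fgf21 and Fgf11, are not shown.

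Of the 18 other FGF ligands, 3 passed the filter, while 10 had at most 3 counts in every library. None of the 3 was called in edgeR, beside 36.4% of all genes tested. There were also 0 at an unadjusted p under 0.05, and 0 called in DESeq2 and limma-voom. With only 3 genes tested, the list cannot be set apart from that share. Fgf21, a stress-induced hormone of muscle and liver, was at 70.0 ± 7.36 CPM in the control and 81.5 ± 15.8 CPM after STEM (adjusted p = 0.142). The others were the intracellular FGF homologue Fgf11 (64.3 ± 12.6 and 67.5 ± 4.22 CPM, adjusted p = 0.667) and Fgf5 (1.23 ± 0.470 and 0.960 ± 0.269 CPM, adjusted p = 0.461). Per kb of merged exon, Fgf21 stood at 73.6 ± 7.74 and 85.7 ± 16.6, above every member in both groups. Fgf11 stood at 21.1 ± 4.15 and 22.2 ± 1.39, with means above those of Fgfr4 and Fgfr1 in both groups and of Met with STEM. Fgf5 was at 0.493 ± 0.188 and 0.384 ± 0.108.

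Of 14 other receptors and binding partners, 9 were tested, of which 3 rose and 1 fell, a share of 44.4% called beside 36.4% of all genes tested. The median over the 9 was 0.18 on the log2 scale. Without library 6, 6 of the 9 were called, with Cd44 and Fgfr3 added, beside 50.8% of all genes. Plxnb1, a semaphorin receptor that can pair with MET, went from 12.3 ± 3.03 CPM to 21.4 ± 2.82 CPM (adjusted p = 0.000501), with library 6 the highest of the horse serum group at 18.1 CPM. Fgfbp1, a secreted carrier that releases FGFs from the matrix, went from 3.48 ± 0.706 to 5.87 ± 0.964 CPM (adjusted p = 0.00149). Flrt1, a membrane protein that binds FGF receptors, went from 0.966 ± 0.347 to 2.27 ± 0.790 CPM (adjusted p = 0.0026). Nrp1, named after its values were seen, was the gene that fell (52.5 ± 8.57 to 41.2 ± 1.67 CPM, adjusted p = 0.00479).

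HGF is secreted as an inactive single chain and is cut by serine proteases. Of 12 such proteases and inhibitors, 4 were tested (median 0.34 on the log2 scale) and 2 called, in opposite directions, beside 36.4% called among all genes tested. Without library 6, 3 of the 4 were called, with the inhibitor Spint1 added, beside 50.8% of all genes. Plat, the tissue plasminogen activator, was at 100.7 ± 5.99 CPM in the control and 183 ± 13.7 CPM after STEM (log2 fold change 0.86, adjusted p = 9.57e-08). Plau, the urokinase, was at 105 ± 14.9 and 76.8 ± 8.06 CPM (log2 fold change -0.45, adjusted p = 0.00227), with library 6 at 78.2 CPM within the STEM range. The dedicated activators Hpn, St14 and Tmprss13 had at most 2 counts in every library, and Hgfac had 2 to 20.

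Of 17 carriers and enzymes of heparan sulfate, the co-receptor of FGFs, 16 were tested and 9 called (56.2%, beside 36.4% of all genes tested), 5 higher and 4 lower, with a median log2 fold change of 0.06. Without library 6, 10 were called, with Ndst2 added, beside 50.8% of all genes. Lowest in p among those that rose were the chain-elongating enzyme Ext1 (161 ± 19.4 to 223 ± 12.7 CPM, adjusted p = 0.000119) and the syndecans Sdc1 (385.5 ± 40.7 to 512 ± 13.3 CPM, adjusted p = 0.000126) and Sdc2 (582 ± 41.6 to 726 ± 24.0 CPM, adjusted p = 0.000249), which carry heparan sulfate at the cell surface. In all 3 genes the STEM values lay above the whole horse serum range. The 4 that fell were Sdc4, Sulf1, Hs2st1 and Hpse, and the largest of these changes was that of the syndecan Sdc4 (229 ± 47.3 to 123 ± 24.2 CPM, log2 fold change -0.89, adjusted p = 0.00117).

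The adaptors that link the receptors to RAS were called in 3 of 13 genes, a share of 23.1% against 36.4% of all genes tested, with a median log2 fold change of 0.03. Ptpn11, the phosphatase SHP2, was higher with STEM (199 ± 6.22 to 234 ± 6.20 CPM, adjusted p = 0.000235). Gab1, the main docking protein of MET, was lower (27.0 ± 1.61 to 20.3 ± 2.15 CPM, adjusted p = 0.000434), and so was Frs3, a docking protein of FGF receptors (4.57 ± 0.605 to 2.83 ± 0.556 CPM, adjusted p = 0.0019). When library 6 was left out, 5 of the 13 were called, with Crkl and Shc1 added, beside 50.8% of all genes.

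Among 13 feedback inhibitors and targets of ERK, 6 were called, or 46.2%, against 36.4% of all genes tested, and all 6 (Spry1, Dusp4, Etv4, Etv1, Dusp6 and Spred3) fell with STEM. The list's median log2 fold change was -0.21, beside 0.01 over all genes tested. Spry1, a Sprouty inhibitor of receptor signalling, fell from 38.3 ± 2.38 to 24.7 ± 3.04 CPM, with an adjusted p of 2.27e-05. Dusp4, an ERK phosphatase, went from 12.9 ± 1.68 to 8.68 ± 0.808 CPM (adjusted p = 0.000347). The transcription factor Etv4 went from 6.80 ± 1.70 to 3.61 ± 0.610 CPM (adjusted p = 0.00055). Each of the 3 was lower in every STEM library than in every horse serum library. The other 7 genes did not pass, among them Spry2 at 45.3 ± 4.00 and 43.4 ± 2.15 CPM. Without library 6, 6 of the 13 were called, again all lower, beside 50.8% of all genes. That library had the highest sum of this list (289 CPM, other horse serum libraries 225 to 258 CPM, STEM 182 to 221 CPM). Of the 8 proliferation markers, 7 were called, all lower with STEM, beside 36.4% called and 17.4% called lower among all genes tested. Mki67 went from 217 ± 59.1 to 141 ± 12.2 CPM (adjusted p = 0.00506). The part of the proliferation markers in the change of the list was not tested. Of the 6 markers of reserve cells and myoblasts, 5 were tested and 3 called, beside 36.4% of all genes tested. Cd34 fell from 79.7 ± 11.3 to 47.5 ± 3.24 CPM (adjusted p = 1.17e-05) and Myf5 from 18.1 ± 2.14 to 13.5 ± 1.1 CPM (adjusted p = 0.00132), while Hey1 rose from 10.4 ± 1.37 to 16.7 ± 1.49 CPM (adjusted p = 5.17e-05), each without overlap between the groups. Pax7, the satellite cell factor, was at 33.3 ± 3.90 and 32.4 ± 5.78 CPM (adjusted p = 0.827). Of the 10 myotube markers, 3 were called, beside 36.4% of all genes tested. Myog fell from 907 ± 38.3 to 745 ± 83.8 CPM (adjusted p = 0.00403). Myh8 fell from 585 ± 259 to 246 ± 36.6 CPM (adjusted p = 0.0357), with library 6 at 79.8 CPM. Mymk rose from 165 ± 13.3 to 212 ± 15.1 CPM (adjusted p = 0.000361). Ckm, at 515 ± 52.0 CPM with STEM, was not called (adjusted p = 0.354). The part of the reserve cell, myoblast, myotube and fibroblast markers in the members' changes was not tested.

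**Figure D4:**
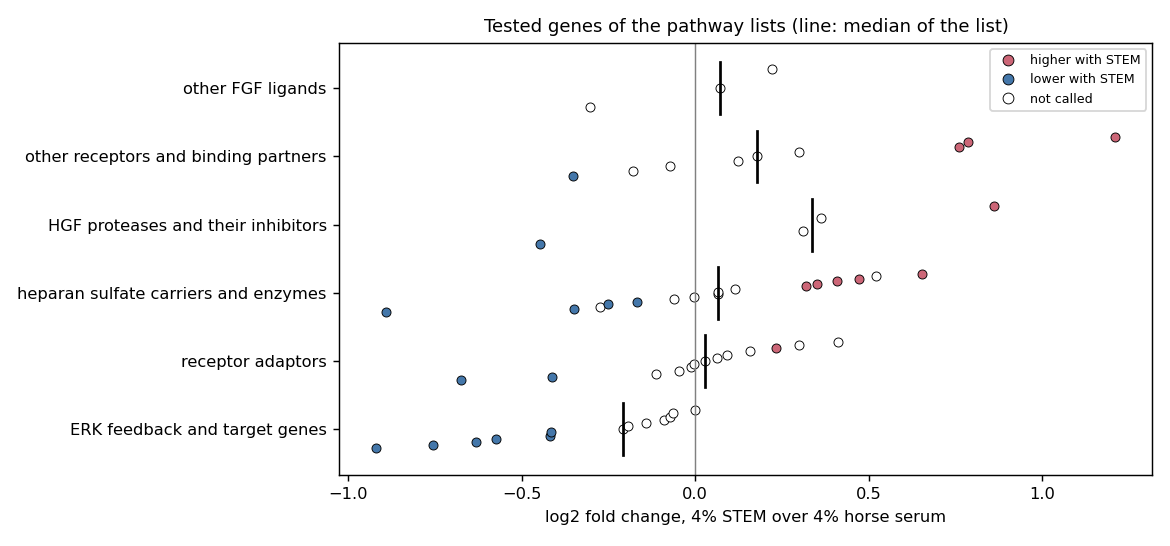
Log2 fold change, 4% STEM over 4% horse serum, of every tested gene in 6 lists of the HGF and FGF pathway. Points are genes, coloured where the adjusted p-value was 0.05 or less, and lines are medians. In the ERK feedback list the 6 called genes all lie below 0, and in the other lists with calls they lie on both sides.

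**Figure D5:**
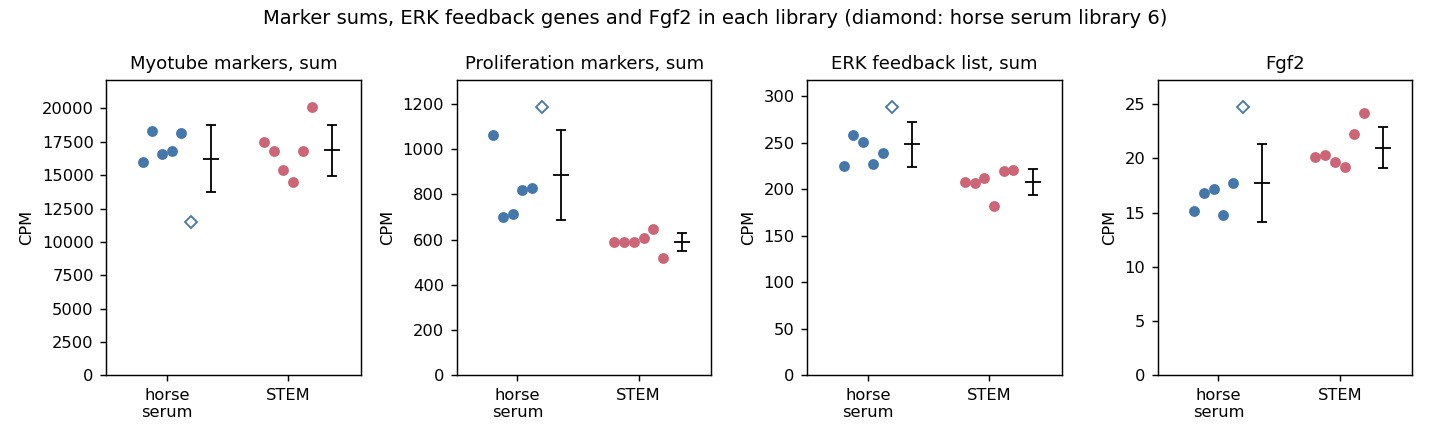
Summed CPM of the 10 myotube markers, the 8 proliferation markers and the 13 ERK feedback and target genes, and CPM of Fgf2, in each library; the open diamond is horse serum library 6, bars are mean and SD of 6 libraries. Library 6 has the lowest myotube sum (11455 CPM) and the highest of the other 3 values.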

How the data were processed

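RNA of C2C12 myotubes was sequenced in 12 libraries, 6 per group, made with a stranded kit after ribosomal RNA removal. The authors deposited raw read counts per Ensembl gene without normalization, and the submitters' processing notes name STAR 2.7.3a, featureCounts 1.6.3, DESeq2 1.26.0 and build GRCm38. The annotation release and strand setting are not given in the sources used here. Libraries were grouped by their labels.

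Symbols, coordinates and exon lengths came from GENCODE vM21 (GRCm38), which held 55227 of the 55487 listed genes, and the rest held 0.00268% of counts. All 14175 genes passing filterByExpr were tested with edgeR 4.0.16 (TMM, robust quasi-likelihood test, R 4.3.3), with Benjamini-Hochberg adjustment over all of them. DESeq2 1.42.0 and limma-voom (limma 3.58.1) were alternatives, beside other scalings, other filters and leaving out each library. Log2 CPM used a prior count of 2. On simulated data of 14175 genes for this comparison, edgeR recovered 100 of 100 genes changed 4-fold and 90 of 100 changed 2-fold, with 5% of calls false.

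No pair of libraries within a group agreed within counting noise (chi-square per degree of freedom at least 3.29). Members and lists were chosen with earlier results of these data known. Named genes are the 10 members, up to 3 called genes of lowest p-value per pathway list, Myog, Ckm, Pax7 and Mki67, and the 3 genes nearest to Hgf and to Met in centred log2 CPM. The markers quoted at 2 counts or fewer, the HGF activators, Spry2, Etv1, Dusp6, Spred3, Sdc4, Sulf1, Hs2st1, Hpse, Nrp1, Fgfr3, Cd44, Ndst2, Spint1, Crkl, Shc1, Cd34, Myf5, Hey1 and the 3 further FGF ligands fall outside this rule and were named after their values were seen. The same holds for Cd68, Csf1r, Cdh1, Ly6a, Dpt, Myh8, Mymk and Ttn. No replicate block applies, as library numbers are not shared between groups. The length of the longest coding transcript was an alternative to merged exon length chosen after seeing the data.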

Additional observations from a re-analysis of the deposited data

Results flagged for a closer look

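In 3 of the 18 sets of 6 libraries examined for single extreme values, the highest or lowest library was farther from its neighbour than Dixon's 95% critical value allows, and chance gives about 1 in 20 such sets. Hgf in STEM library 12 was 24.4 CPM, with the next value at 19.3 CPM. Fgf2 in horse serum library 6 was 24.8 CPM, with the next at 17.7 CPM, and Fgfrl1 in the same library was 51.4 CPM, with the next at 68.8 CPM. Fgf6 in STEM library 7 was 0.0816 CPM, from 2 counts, against 0 in the other STEM libraries. It is not counted among the 3, since any count in a single library would meet the criterion when the others are at 0.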

How the results depend on the processing

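Hgf, Met, Fgfr1, Fgfr4 and Fgfrl1 kept their direction and stayed past the threshold under all 19 alternatives (7 other scalings, filters or tools and 12 fits without a library). The number of members called was 5 or 6. Leaving out each library in turn, the log2 fold change lay between -1.15 and -1.05 for Hgf, -0.22 and -0.19 for Met, -0.30 and -0.21 for Fgfr1, -0.39 and -0.31 for Fgfr4, and 0.61 and 0.72 for Fgfrl1. For Fgf2 it lay between 0.19 and 0.36, and was past the threshold only without horse serum library 6. The difference in mean log2 CPM lay between 0.21 and 0.36 for Fgf2 and between -0.88 and -0.37 for Fgf1, and both passed the exact permutation test only without that library. Called genes of the adaptor list numbered 3 to 5. All genes called numbered 4459 to 7245, the most without horse serum library 6. The scaling moved the share of calls that were higher from 52.1% to 47.1% at the lowest (upper quartile). Without length scaling, the shares among the kinase receptors with horse serum and STEM were 53.0% and 51.9% for Fgfr1 and 0.890% and 1.07% for Fgfr2. They were 36.6% and 33.4% for Fgfr4, and 13.6% for Fgfr3 with STEM. With the longest coding transcript the receptor shares were 43.9% and 43.3% for Fgfr1 and 0.863% and 1.05% for Fgfr2. They were 45.9% and 42.2% for Fgfr4, and 13.5% for Fgfr3 with STEM. Ligand shares were taken among the members Fgf1, Fgf2, Fgf6 and Fgf7 only, which leaves out Fgf21 and Fgf11. Per kb of merged exon they were 50.7% and 53.8% for Fgf2 and 46.7% and 44.8% for Fgf7. Without length scaling they were 66.9% and 70.1% for Fgf2 and 30.1% and 28.4% for Fgf7. By that length the ratio of Hgf to Met was 0.505 with horse serum and 0.272 with STEM. These differences follow from the lengths used. No paired analysis was possible because the groups share no library numbers.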
